A study of Mus musculus with 36 samples.

Results

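The sites described here are promoter sites of SIN3A in mouse embryonic stem cells (ESCs) without a peak of the NuRD complex. Peaks of NuRD were those of its subunits CHD4 and MBD3 in the lists used here. A site was a SIN3A peak of the preparation with spike-in chromatin that was also found, by at least 1 bp, in the SIN3A list made without spike-in, whose midpoint lay within 1 kb of the start of a protein-coding gene, and which overlapped no peak in any of 4 ESC lists, namely CHD4 replicates 1 and 2 and MBD3 replicates 1 and 2. This gave 4522 sites (69.6% of the 6494 replicated SIN3A sites at gene starts, exact 95% interval 68.5 to 70.75%). The remaining 1972 promoter sites, which overlapped at least 1 NuRD peak, served as the comparison. The sites were thus chosen by SIN3A, CHD4 and MBD3 peaks of ESCs, and those peaks and their values are described without a test.

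The series holds 36 ChIP-seq samples of mouse cells, of which 9 gave peak lists. Wild-type R1 ESCs, kept in serum with LIF and 2i (inhibitors of MEK and GSK3), were precipitated for SIN3A (1 library with and 1 without spike-in chromatin), CHD4 (2 replicates) and MBD3 (2 replicates). Neural progenitor cells (NPCs), differentiated from R1 ESCs and grown in NPC medium, were precipitated for CHD4 and for MBD3 (1 library each). GFP-tagged ZFP296 was precipitated with a GFP antibody from ESCs (1 library), labelled as a ZFP296 BAC line of R1 cells and described in the study's methods as a construct put into KH2 ESCs. No group was a knockout, and how many clones the tagged line represents is not given in the sources used here. CHD4 replicate 2, labelled wild type, carries a Zfp219 BAC in the names of all its 29974 peaks, so the number of sites, the tests and the shares of the gene lists were also computed without it. Positions, distances to the nearest NuRD peak, counts by gene and by chromosome and the shares within classes of sites were not. The lists held from 2304 to 29974 peaks. The peak names of 7 lists mention an equal number of reads for each, but neither SIN3A list does, so the depth behind the SIN3A lists is unknown. A missing peak therefore says that none was called, and not that the protein was absent.

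SIN3A is the scaffold of a corepressor complex that carries the histone deacetylases HDAC1 and HDAC2, which take acetyl groups off histone tails. NuRD carries the same deacetylases together with the chromatin remodeller CHD4 and, in one of its forms, the bridging subunit MBD3. SIN3A does not itself recognise DNA sequences and is brought to chromatin by transcription factors and histone readers, mostly at active promoters rich in CpG. ZFP296 is a zinc finger protein of ESCs.

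Sequences of divergent promoters are shown first, since gene orientation was one of the features in which sites without NuRD differed from those with it. The following 4 stretches lie between the starts of head-to-head gene pairs, where the peak midpoint fell between both starts. They are the sites of highest SIN3A value with such a stretch of 40 to 300 bp free of annotated exons, and were picked after the values were seen. Each is the plus strand of mm9 (NCBIM37), 5′ to 3′, with exact matches to the searched strings, on either strand, in capitals.
Nubp2 and Spsb3, chr17:25023296-25023587: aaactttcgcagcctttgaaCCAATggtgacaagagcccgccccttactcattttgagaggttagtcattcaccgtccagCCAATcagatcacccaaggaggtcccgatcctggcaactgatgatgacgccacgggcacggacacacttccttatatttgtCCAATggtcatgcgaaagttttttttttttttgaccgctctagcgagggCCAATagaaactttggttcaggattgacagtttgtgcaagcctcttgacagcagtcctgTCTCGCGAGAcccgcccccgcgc
2410002I01Rik and 1810043H04Rik, chr11:119960046-119960241: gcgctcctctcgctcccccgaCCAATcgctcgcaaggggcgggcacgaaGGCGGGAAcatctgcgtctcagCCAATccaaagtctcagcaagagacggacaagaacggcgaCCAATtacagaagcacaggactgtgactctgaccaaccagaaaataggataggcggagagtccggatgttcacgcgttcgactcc
Iqch and Aagab, chr9:63450301-63450461: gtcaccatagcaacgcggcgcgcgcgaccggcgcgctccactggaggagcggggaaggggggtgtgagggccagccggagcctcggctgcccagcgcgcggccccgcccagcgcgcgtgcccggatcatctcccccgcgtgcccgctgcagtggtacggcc
Xrcc3 and Zfyve21, chr12:113052085-113052380: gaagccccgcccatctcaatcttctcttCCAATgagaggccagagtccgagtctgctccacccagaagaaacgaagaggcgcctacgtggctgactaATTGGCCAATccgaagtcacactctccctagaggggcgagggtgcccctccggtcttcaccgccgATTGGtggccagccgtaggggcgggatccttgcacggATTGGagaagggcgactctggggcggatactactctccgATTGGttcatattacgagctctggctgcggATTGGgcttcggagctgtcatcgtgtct

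The Nubp2/Spsb3 stretch held 4 copies of CCAAT, the box bound by the trimeric factor NF-Y, and 1 palindromic TCTCGCGAGA run, which contains the BANP string on both strands. The stretch between 2410002I01Rik and 1810043H04Rik held 3 copies of CCAAT and 1 E2F string, and that between Xrcc3, a homologous recombination gene, and Zfyve21 held 7 copies of CCAAT. None of the 15 strings matched between Iqch and Aagab. Their SIN3A peaks had values of 80.6, 70.9, 35.01 and 35.9 in the list with spike-in, in the order Nubp2/Spsb3, 2410002I01Rik/1810043H04Rik, Xrcc3/Zfyve21 and Iqch/Aagab. A match is a description of the letters and not a binding site.

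The value of a peak, which the authors gave on a −log10 scale, can be compared within a list only, and values of a site in several lists are set side by side as a description. At the sites without NuRD the value in the list with spike-in had a median of 8.99, quartiles of 6.85 and 12.4 and a range of 3.06 to 145.8. At the sites with NuRD the median was 9.79. In the list without spike-in the medians were 14.6 and 16.3. The peaks without NuRD were also a little narrower (median 273 bp against 303.5 bp). Of the tenth of promoter sites with the lowest SIN3A value 74.7% (71.2 to 78.0%) had no NuRD peak, and of the tenth with the highest value 62.5% (58.6 to 66.2%), so sites without NuRD made up most sites at every SIN3A strength. How far weaker or narrower SIN3A peaks account for a missing NuRD peak was not tested.

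**Figure D1:**
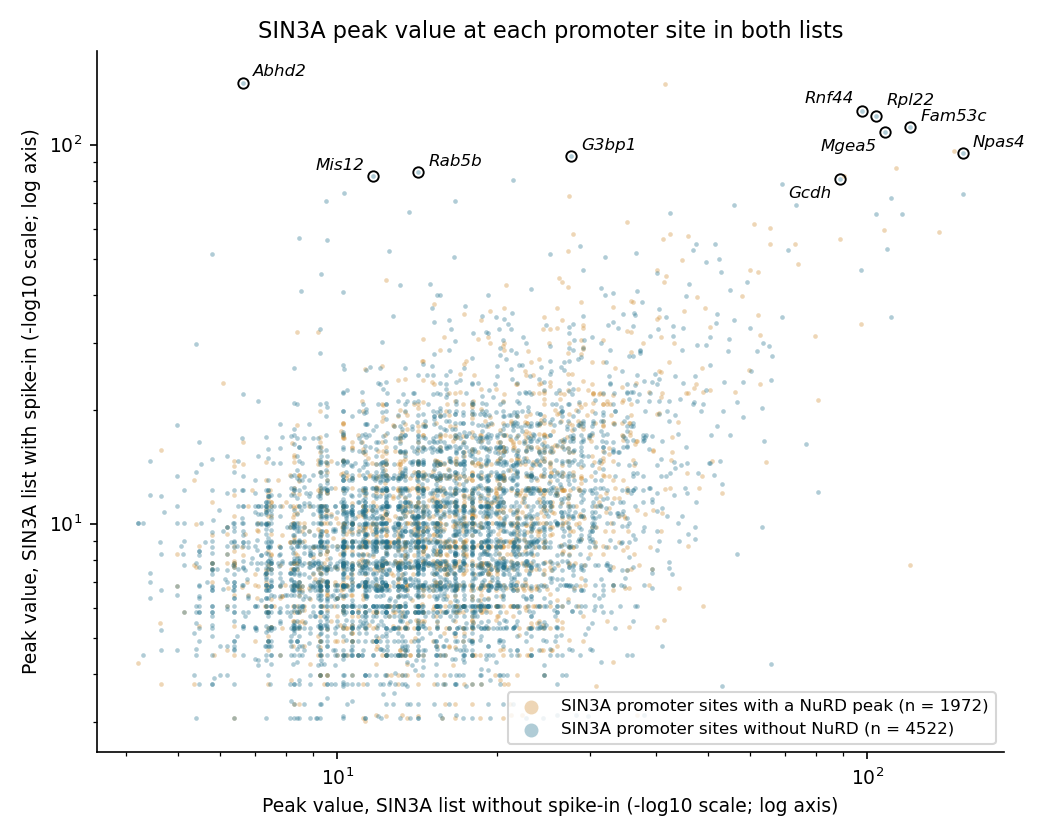
Each point is 1 SIN3A promoter site, with its peak value in the list without spike-in (horizontal) and with spike-in (vertical), both on log axes; blue points are the 4522 sites without NuRD, orange points the 1972 sites with a NuRD peak, and black circles the 10 sites without NuRD of highest value with spike-in. Both kinds of site cover the same range, and of the circled sites Abhd2, Mis12, Rab5b and G3bp1 lie at 6.64 to 27.6 without spike-in while the other 6 lie at 88.8 to 151.4.

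The 10 strongest sites without NuRD in the list with spike-in lay at genes of unlike function. The first was Abhd2, a lipid hydrolase gene (chr7:86417765-86418166), with 145.8 with spike-in and 6.64 without. Rnf44, a RING finger gene (chr13:54794959-54795986), had 122.7 and 97.8, in the same order. Rpl22, a protein of the large ribosomal subunit (chr4:151699557-151700335), had 119.3 and 103.8. These 3 sites show that a top rank in one list was kept in the other at Rnf44 and Rpl22 and not at Abhd2.

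Mgea5, the enzyme that removes O-GlcNAc from proteins, had 107.7 with spike-in and 108 without. Npas4, a transcription factor induced by neuronal activity, had 95.02 and 151.4, with the midpoint 797 bp inside the gene. Gcdh, a mitochondrial enzyme of lysine breakdown, had 81.0 and 88.8, and Fam53c had 111.1 and 120.3. Those 4 sites were high in both lists. By contrast G3bp1, a core protein of stress granules, had 93.4 and 27.6, Rab5b, a GTPase of early endosomes, 84.5 and 14.2, and Mis12, a kinetochore subunit, 82.4 and 11.7. None of the 10 sites had a ZFP296 peak or an NPC peak of CHD4 or MBD3. The site of Fam53c lay 158 bp from an ESC NuRD peak, and the next nearest of the 10, that of Mgea5, lay 5041 bp from one. Over all 4522 sites the values of both lists had a Spearman rank correlation of 0.315, and the 100 highest of each list shared 35 sites. The correlation is a description over sites that share the antibody and the cell line, and both lists differ in spike-in and in the threshold of the peak calls.

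The edges of the rule were as follows. The 3 sites nearest inside the 1 kb limit belonged to Crebzf (midpoint 999 bp from the start), Pipox (997 bp) and Odf2 (997 bp), with SIN3A values with spike-in of 6.995, 10.03 and 15.56. The 3 nearest outside belonged to Setd1a (1002 bp), Actb (1004 bp) and Map3k1 (1005 bp), with 7.98, 11.25 and 10.89. On the NuRD side, the sites of Srsf7 (9.93) and of Yars (33.25) touched a NuRD peak without sharing a base with it and that of 2810025M15Rik (14.3) lay 1 bp from one. The sites of Mgat5b (12.8) and Slx4 (8.92) shared 1 bp with a peak of CHD4 replicate 2, and that of Sptlc2 (18.1) shared 2 bp with a peak of CHD4 replicate 1, and so counted as having NuRD. Overall the nearest NuRD peak was a median of 9830.5 bp away. It lay within 500 bp at 787 sites (17.4%), within 1000 bp at 1063 (23.5%) and within 5000 bp at 1711 (37.8%).

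Of the 1972 comparison sites, 1910 (96.9%) overlapped a CHD4 peak and 355 (18%) an MBD3 peak, so lacking NuRD was almost the same as lacking CHD4. CHD4 replicate 2 alone set 1218 of them apart (61.8%). Without it the sites without NuRD came to 5740 of 6494 (88.4%), and in 402 of the comparison sites both CHD4 replicates had a peak. Away from gene starts a missing NuRD peak was less frequent: of 2349 replicated SIN3A sites there, 1024 (43.6%, 41.6 to 45.6%) had none. The paper proposes that CHD4 peaks without MBD3 may mark CHD4 working outside NuRD. A NuRD peak here thus means a peak of either subunit and not of the whole complex.

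The sites without NuRD sat just inside the gene. Their midpoints were a median of 121 bp downstream of the nearest start (quartiles −2 and 295 bp), and 25.2% lay upstream, against a median of 83.5 bp and 32.4% at the sites with NuRD. The midpoint fell in an annotated untranslated region at 1805 sites (39.9%), in another exon at 718 (15.9%), in an intron at 1095 (24.2%) and outside genes and exons at 904 (19.99%). The peak covered the start itself at 2061 sites (45.6%). The window of 200 bp around the midpoint had a median G and C content of 69% and a median ratio of observed to expected CpG of 0.891. The windows of the sites with NuRD were alike (71% and 0.888), while 200 bp around all protein-coding gene starts had 59% and 0.611. By a ratio above 0.6 and a G and C content above 50%, 91.5% of the sites without NuRD were rich in CpG, 89.9% of those with NuRD and 48.4% of all gene starts.

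**Figure D2:**
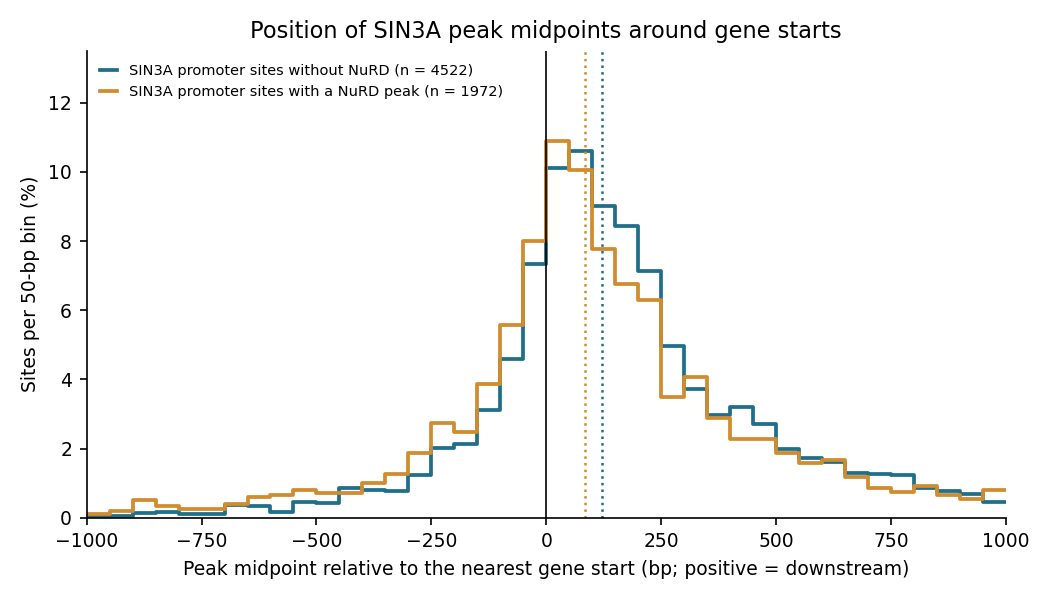
The share of sites (vertical, percent per bin of 50 bp) against the position of the peak midpoint relative to the nearest gene start (horizontal, bp, positive downstream), for the 4522 sites without NuRD (blue) and the 1972 with NuRD (orange); dotted lines are the medians, 121 and 83.5 bp. Both profiles peak just downstream of the start.

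Which of these promoters had a peak of CHD4 or MBD3 in another cell state was asked with the NPC lists. Those lists had no part in choosing the sites. CHD4 had an NPC peak at 330 of the 4522 sites (7.30%, 6.56 to 8.095%) and at 559 of the 1972 comparison sites (28.35%, 26.4 to 30.4%). The background over all 6494 promoter sites was 13.7%. The odds ratio was 0.199 (0.171 to 0.2315, Fisher's exact test, adjusted p = 3.13e-103 over 19 tests). MBD3 had an NPC peak at 72 sites without NuRD (1.59%) and at 136 with NuRD (6.90%), with a background of 3.20% and an odds ratio of 0.2185 (0.161 to 0.2945, Fisher's exact test, adjusted p = 6.3e-25). SIN3A promoters without an ESC NuRD peak thus had an NPC peak less often than those with one. Counted by gene, an NPC CHD4 peak lay within 1 kb of the start of 14.4% of the 4015 genes with only sites without NuRD, of 37.9% of the 1599 with only NuRD-bearing sites and of 4.31% of the 12955 with no SIN3A peak in either list, against 11.05% of all protein-coding genes. Of those 4015 genes, 564 (14.05%) had an ESC NuRD peak within 1 kb of the start. Their SIN3A sites lacked NuRD, but not all of their promoters did. Such a peak lay at 8.91% of the genes with no SIN3A peak and at 22.04% of all protein-coding genes. The latter include the genes picked for a NuRD-bearing site, so the lower share of the 4015 genes follows in part from the rule. Without CHD4 replicate 2 in the rule the odds ratios were 0.293 for CHD4 and 0.172 for MBD3, both past the threshold. The p-values cover counting over sites only, since every list is 1 library and sites are not replicates.

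The share with NPC CHD4 was 8.895% (7.00 to 11.1%) where the nearest ESC NuRD peak lay at most 500 bp away and 6.85% (5.16 to 8.89%) where it lay over 50000 bp away, and those intervals overlap. Over 5 equal classes of SIN3A value with spike-in it was 6.64% (5.10 to 8.46%) in the lowest and 9.17% (7.37 to 11.2%) in the highest, again with overlapping intervals. The share with NPC MBD3 was 1.59% over all sites without NuRD. It was 3.05% (1.96 to 4.50%, 24 of 787 sites) within 500 bp of an ESC NuRD peak and 0.866% (0.3745 to 1.70%, 8 of 924) where that peak lay over 500 and up to 5000 bp away. It was 1.27% (0.829 to 1.85%) between 5000 and 50000 bp and 1.845% (1.01 to 3.075%) beyond. The first 2 of these intervals do not overlap, but the classes rest on the ESC NuRD peaks that the rule used, and their difference was not tested. Over the classes of SIN3A value the share with NPC MBD3 was 2.10% (1.27 to 3.26%) in the lowest and 1.215% (0.608 to 2.16%) in the highest, with overlapping intervals. Of the 72 sites with NPC MBD3, 30 also had NPC CHD4 (41.7%, 30.15 to 53.9%), against 96 of 136 (70.6%, 62.2 to 78.1%) at the comparison sites. Where an NPC CHD4 peak was present, its value had a median of 7.25 at the sites without NuRD and 9.40 at those with NuRD.

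In the NPC MBD3 list the highest value at a site without NuRD was that of Esco1, an acetyltransferase of cohesin, with 63.4 and no CHD4 peak. This site lay 40 bp from an ESC NuRD peak. Cnnm1 (chr19:43514855-43515056) was next for MBD3 with 42.55, and Vat1 followed with 21.2 and no CHD4 peak. In the NPC CHD4 list Cnnm1 had the highest value, 28.5, and its nearest ESC NuRD peak was 57998 bp away. Next for CHD4 were Klhl21, a substrate adaptor of an E3 ubiquitin ligase, with 25.75, Gas2l1, a linker of actin and microtubules, with 24.2, and Srp19, a protein of the signal recognition particle, with 22.0 (and 7.02 for MBD3). Of those 6 sites, Esco1, Gas2l1 and Vat1 lay within 132 bp of an ESC NuRD peak.

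ZFP296 had a peak at fewer of these promoters than of SIN3A promoters with NuRD. There was one at 68 sites without NuRD (1.504%, 1.17 to 1.90%) and at 103 with NuRD (5.22%, 4.28 to 6.30%), with a background of 2.63% and an odds ratio of 0.277 (0.1999 to 0.382, Fisher's exact test, adjusted p = 2.44e-15). Without CHD4 replicate 2 the odds ratio was 0.180, also past the threshold. Counted by gene, a ZFP296 peak lay within 1 kb of the start of 3.04% (2.53 to 3.62%) of the genes with only sites without NuRD, 8.38% (7.07 to 9.85%) of those with only NuRD-bearing sites and 0.702% (0.566 to 0.862%) of those with no SIN3A peak, against 2.34% (2.15 to 2.55%) of all protein-coding genes. The low share thus held against SIN3A promoters with NuRD and not against genes at large. The highest ZFP296 value, 20.3, was at Rpl32, another protein of the large ribosomal subunit (SIN3A 26.9 with and 25.2 without spike-in), 704 bp from the nearest NuRD peak. Ube2f, a NEDD8-conjugating enzyme, had a ZFP296 value of 16.4, and Wasf1, a regulator of actin branching that shares its promoter with the splicing gene Cdc40, had 16.0. Wasf1 was the only site without NuRD with peaks of ZFP296, NPC CHD4 (7.65) and NPC MBD3 (16.2) together, and it lay 178 bp from an ESC NuRD peak. A ZFP296 peak of 15.5 spanned 2 SIN3A sites at Stard7, a lipid transfer gene, and Taf6, a subunit of TFIID, had 15.2. In all 4089 sites (90.4%) had no peak of ZFP296 and none in NPCs, against 65.5% of the comparison sites.

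**Figure D3:**
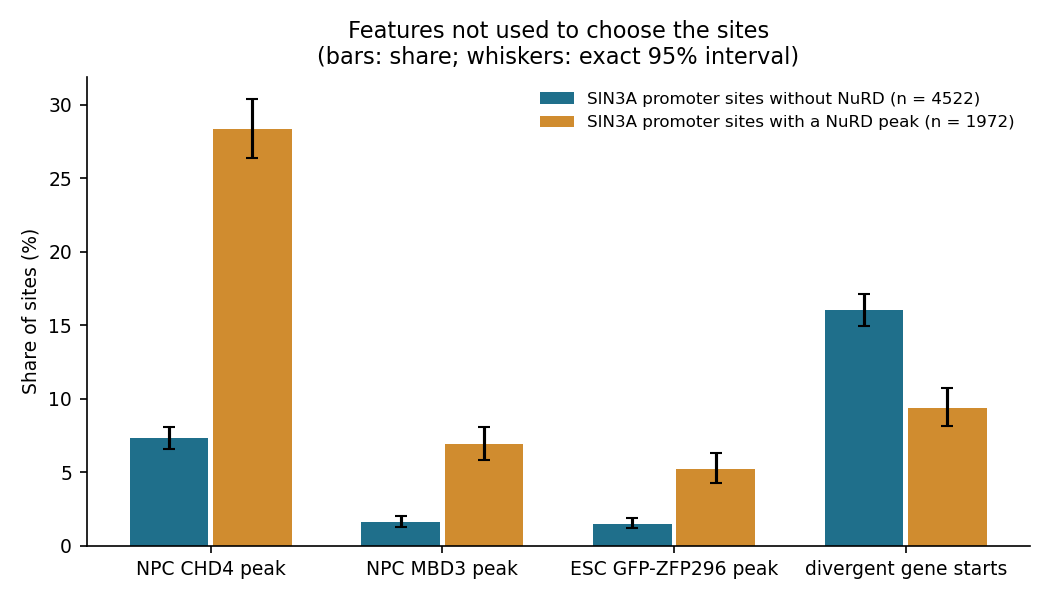
Share of sites (percent, axis from 0) with an NPC CHD4 peak, an NPC MBD3 peak, a GFP-ZFP296 peak or gene starts on both strands, for the 4522 promoter sites without NuRD (blue) and the 1972 with NuRD (orange); whiskers are exact 95% intervals. The first 3 shares are lower without NuRD, and divergent starts are more frequent (16.0% against 9.38%).

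Divergent promoters, where genes of opposite strand start close together, were more frequent without NuRD. Genes of both strands started within 1 kb of the midpoint at 724 sites (16.0%, 14.95 to 17.1%) and at 185 comparison sites (9.38%, 8.13 to 10.75%), with a background of 14.0% and an odds ratio of 1.84 (1.55 to 2.20, Fisher's exact test, adjusted p = 1.77e-12). It was 1.73 without CHD4 replicate 2, again past the threshold. Of the 724 sites, 511 (70.6%) had head-to-head starts, a median of 141 bp apart, and in the other 213 the genes overlapped. At the comparison sites 106 of the 185 (57.3%) had head-to-head starts, a median of 120 bp apart. Mis12 with Derl2 (82.4 with spike-in), Spsb3 with Nubp2 (80.6), 2410002I01Rik with 1810043H04Rik (70.9) and Bag5 with 2810002N01Rik (65.5) were the strongest. Counted by gene, 1100 of the 4015 genes with only sites without NuRD (27.4%, 26.0 to 28.8%) had a start of opposite strand within 1 kb, 263 of the 1599 genes with only NuRD-bearing sites (16.45%, 14.7 to 18.4%) and 426 of the 12955 genes with no SIN3A peak in either list (3.29%, 2.99 to 3.61%). Among all protein-coding genes the share was 10.85%.

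The 200 bp windows were searched on both strands for 15 short strings, most of them bound by known promoter factors. Windows of sites were centred on the peak midpoint and those of all gene starts on the start, so their shares also differ in placement. NF-Y's CCAAT was in 15.6% of the windows without NuRD (706 sites) and in 12.02% with NuRD, with a background of 14.5% over both and 27.3% of windows at all gene starts (odds ratio 1.35, 1.15 to 1.59, Fisher's exact test, adjusted p = 0.00056). The SP string GGGGCGGGG went the other way, at 11.65% against 14.4% (background 12.5%, all gene starts 11.85%, odds ratio 0.784, 0.670 to 0.919, Fisher's exact test, adjusted p = 0.00686). Without CHD4 replicate 2 its odds ratio was 0.776 and its adjusted p 0.0604, while NF-Y (1.51) and SOX2 (0.381) stayed past the threshold. CCATTGT, part of the SOX2 motif, was in 37 windows (0.818%) against 34 (1.72%), with a background of 1.09% and 1.89% at all gene starts (odds ratio 0.470, 0.286 to 0.775, Fisher's exact test, adjusted p = 0.00686), and with a value of at least 5 in every list its adjusted p was 0.155. In the tertile of middle G and C content (66 to 73%) none of NF-Y, SP and SOX2 was past the threshold. NF-Y was then at 13.6% against 11.6% (odds ratio 1.198, Fisher's exact test, adjusted p = 0.397), SP at 10.6% against 13.0% (0.794, Fisher's exact test, adjusted p = 0.253) and SOX2 at 1.11% against 1.45% (0.763, Fisher's exact test, adjusted p = 0.671). In bins along the distance from the peak midpoint, CCAAT was least frequent at the centre in both classes. Without NuRD its share was 8.448% at −50 bp and 9.288% at 50 bp. It was 12.18% at −950 bp and 13.51% at 950 bp. With NuRD these shares were 6.491% and 6.643%, against 12.42% and 12.47%. CCAAT was thus not enriched at the peak centres of either class.

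In the main analysis the remaining 12 strings did not pass the threshold. They were NRF1 (GCGCATGCG), ETS (CCGGAAG), YY1 (AAGATGGCG), CRE (TGACGTCA), the E box (CACGTG), E2F (TTCCCGCC), RONIN (ACTACAATT), BANP (TCTCGCGAG), the TATA box string (TATAAA), OCT (ATGCAAAT), AP1 (TGACTCA) and the telomere repeat (TTAGGG). ETS was in 12.45% against 13.3% (odds ratio 0.924, 0.788 to 1.09), and the TATA box string in 1.08% against 1.12% (odds ratio 0.971, 0.574 to 1.69), with 8.19% at all gene starts. None of 10 promoter strings (NRF1, ETS, YY1, NF-Y, SP, CRE, the E box, E2F, RONIN and BANP) was present in 2545 windows without NuRD (56.3%), in 1094 with NuRD (55.5%) and in 11391 at all gene starts (50.9%).

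For each string past the threshold, the site without NuRD of highest SIN3A value with a match upstream of the gene's exons is shown, with 60 bases centred on the match, on the strand of the gene, from mm9, and the match in capitals.
Abhd2, NF-Y string, chr7:86417868-86417927, plus strand: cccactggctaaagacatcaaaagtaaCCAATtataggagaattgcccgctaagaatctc
Scrt1, SP string on the opposite strand, chr15:76352765-76352824, minus strand: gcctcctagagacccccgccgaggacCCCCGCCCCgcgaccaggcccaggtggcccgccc
Rbm15, SOX2 string, chr3:107136755-107136814, minus strand: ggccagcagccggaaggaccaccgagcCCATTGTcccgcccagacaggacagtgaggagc

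The Abhd2 match lay 190 bp upstream of the start, that of Scrt1, a SNAIL-family repressor of neurons, 235 bp and that of Rbm15, an RNA-binding protein of the m6A writer complex, 193 bp. By SIN3A value with spike-in these sites ranked 1 (Abhd2, 145.8), 14 (Scrt1, 74) and 2159 (Rbm15, 9.32) of the 4522, so the Rbm15 site was not a strong one. CCAAT was more frequent where the peak lay upstream of the start, in 26.8% (24.2 to 29.45%) of those 1139 sites against 11.85% (10.8 to 13.0%) of the 3383 others. The sites with NuRD had the same pattern, with 17.53% (14.66 to 20.7%) of 639 against 9.377% (7.866 to 11.07%) of 1333. Without NuRD, CCAAT was in 19.1% (16.3 to 22.1%) of the divergent sites and in 14.96% (13.8 to 16.1%) of the rest. With NuRD those shares were 12.43% (8.047 to 18.07%) and 11.98% (10.51 to 13.57%), with overlapping intervals. Of the head-to-head gene pairs 40 to 300 bp apart, 112 of the 297 at sites without NuRD (37.7%, 32.2 to 43.5%) held CCAAT between the starts, 14 of the 67 at sites with NuRD (20.9%, 11.9 to 32.6%) and 210 of all 549 such pairs (38.25%). The stretches at sites with NuRD had more G and C (median 70% against 64.4%).

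**Figure D4:**
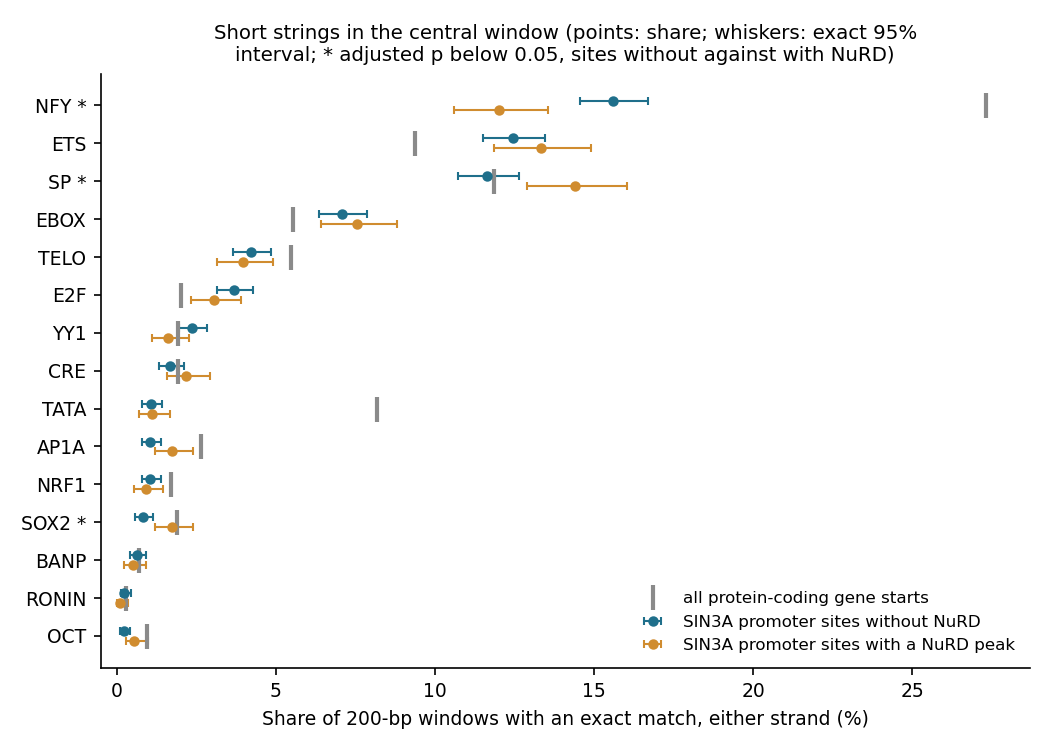
Share of 200 bp windows (percent) with an exact match to each of 15 strings, for promoter sites without NuRD (blue), with NuRD (orange) and windows at all protein-coding gene starts (grey bars); whiskers are exact 95% intervals and stars mark the 3 strings with an adjusted p below the threshold of 0.05. NF-Y is higher and SP and SOX2 are lower without NuRD, and the differences are small beside that between NF-Y at these sites and at all gene starts.

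The 4522 sites lay at 4415 of 22367 protein-coding genes, 400 of which also had a site with NuRD, and 774 genes had more than 1 such site. By symbol the background was 19.8% (4401 of 22225), and 7.16% of symbols had only a site with NuRD. The gene lists below were chosen with earlier results of these data known, and their shares are given without a test. Since 16232 of the 22225 symbols had neither kind of site, a share above 19.8% can mean no more than that SIN3A was there. Shares with a NuRD-bearing site only lay on both sides of 7.16%. Proteasome (2.33%), cytosolic ribosomal proteins (3.49%) and DNA replication (4.35%) were lower. Mitochondrial ribosomal proteins (18.4%), autophagy and lysosome (17.1%) and RNA polymerases (16.7%) were higher. Without CHD4 replicate 2 the background was 24.5% of symbols, and DNA replication (30 of 46, 65.2%) and the aminoacyl-tRNA synthetases (24 of 37, 64.9%) still had the highest shares.

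Genes of DNA replication stood highest, with 29 of 46 (63.0%, 47.55 to 76.8%) at a site without NuRD and 2 at a NuRD-bearing site only. They took in the origin recognition subunit Orc6 (SIN3A 23.3 with and 40.15 without spike-in), the licensing factor Cdt1 (22.35 and 27.4), the primase subunit Prim2 (19.8 and 22.3) and the clamp loader subunit Rfc4 (15.5 and 13.4), while Mcm2 to Mcm6 all had such a site. Aminoacyl-tRNA synthetases, which charge tRNAs, followed with 21 of 37 (56.8%), among them Yars (33.25 and 36.2), Eprs (18.35 and 11.4) and Mars (15.05 and 19.15). Hars and Hars2 shared 1 divergent site. The spliceosome had 32 of 57 (56.1%) and the Mediator complex 16 of 32 (50%), with Med26 (17.35 and 30.2) and Med18 (13.9 and 17.35) first.

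The genes of the SIN3 complex itself were also in the upper part, with 13 of 25 (52%, 31.3 to 72.2%). Of these 13, 2 also had a site with NuRD. The histone demethylase gene Kdm5b had 52.6 with and 70.9 without spike-in, the chromatin reader genes Ing2 and Ing1 had 22.6 and 12.2, and 15.5 and 13.1, and Arid4a had 15.9 and 35.3. Sap30, Sap130, Suds3, Brms1 and Fam60a were further such genes, while Hdac2 and Sin3b had only a site with NuRD, which in both rested on CHD4 replicate 2 (15 of 25 genes had a site without NuRD when that list was left out). Of 11 NuRD genes, 4 had a site without NuRD (36.4%, 10.9 to 69.2%), namely Gatad2a (51.7 and 36.6), Mta2 (8.72 and 17.5), Cdk2ap1 (4.90 and 9.55) and Chd4 itself (4.51 and 11.7). Of these 4, 2 also had a site with NuRD. The 9 other lists of housekeeping or repair genes and zinc fingers ranged from DNA repair (20 of 46, 43.5%) over RNA polymerases (13 of 30, 43.3%), autophagy and lysosome (15 of 35, 42.9%), mitochondrial ribosomal proteins (31 of 76, 40.8%), proteasome (17 of 43, 39.5%), respiratory chain and ATP synthase (33 of 91, 36.3%), cytosolic ribosomal proteins (23 of 86, 26.7%) and Zfp genes (77 of 364, 21.15%) to replication-dependent histones (10 of 67, 14.9%). The intervals of the last 3, like that of the NuRD genes, held the background of 19.8%.

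Pluripotency factors were split. Of 21 genes, 6 had a site without NuRD (28.6%, 11.3 to 52.2%), namely Klf5 (15.9 with and 27.2 without spike-in), Tbx3 (13.4 and 19.1), Sox2 (11.4 and 20.3), Klf4 (11.1 and 20.6), Klf2 (9.035 and 22.05) and the growth factor gene Fgf4 (8.33 and 16.7). Of these 6, 3 also had a site with NuRD, as did 399 of the 4401 symbols with a site without NuRD. Another 7 had only sites with NuRD (33.3%, against 7.16% of all symbols), namely Pou5f1, Nanog, Sall4, Lin28a, Tdgf1, Zfp42 and Zfp296 itself. Of the 39 Hox genes, 0 had a site without NuRD (upper limit of the exact interval 9.025%) and 2 had one with NuRD, and in no list but these had more genes a NuRD-bearing site only than a site without NuRD. That order was lost without CHD4 replicate 2, when 7 of the 21 pluripotency factors had a site without NuRD and 6 only sites with NuRD (28.6%, all of those above but Zfp296, against 2.50% of all symbols), and 1 Hox gene stood in each class. None of the 1087 olfactory receptor genes had either.

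**Figure D5:**
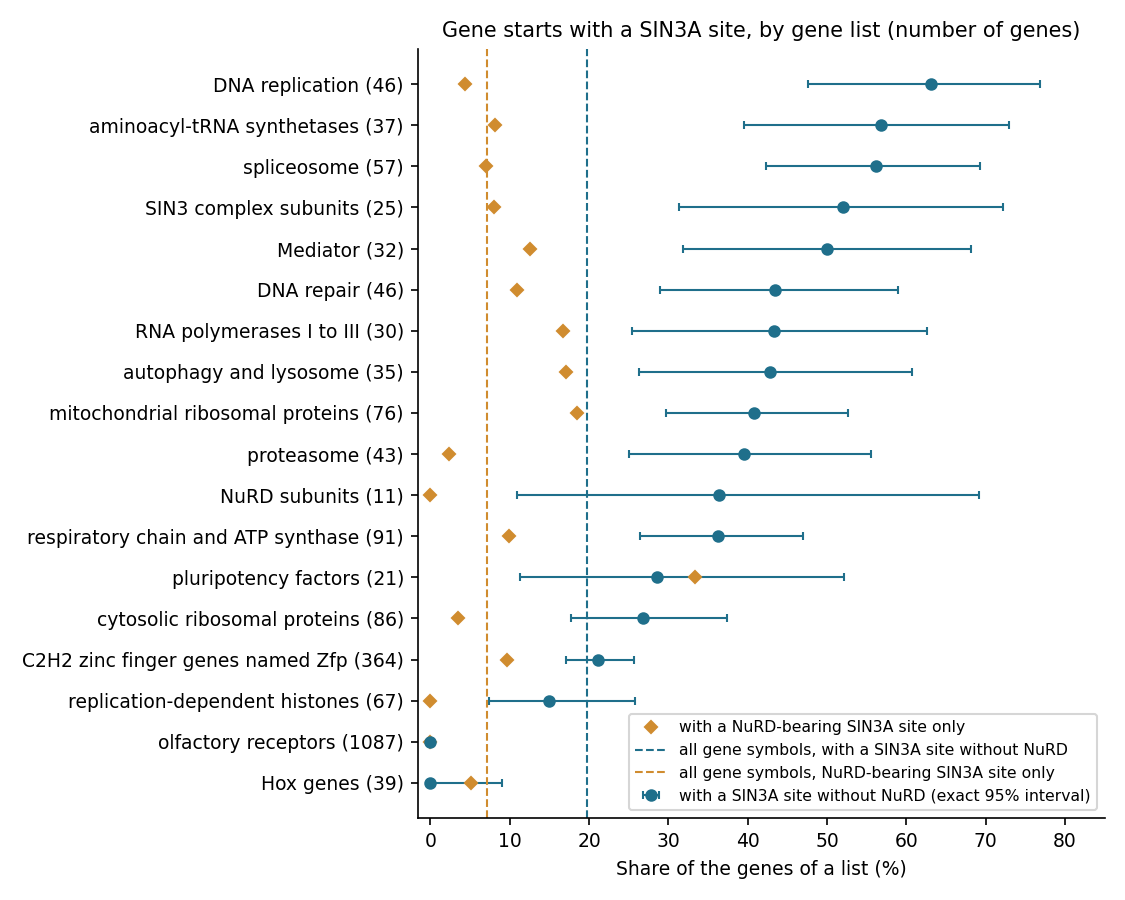
Share of the genes of each list (percent) with a SIN3A promoter site without NuRD (blue points, whiskers exact 95% intervals) or with a NuRD-bearing site only (orange diamonds); dashed lines are the shares over all 22225 symbols, 19.8% and 7.16%, and the number of genes stands after each list's name. DNA replication genes stand highest and olfactory receptor and Hox genes at 0, and pluripotency factors have the highest orange share.

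The sites were spread over all autosomes, with 14.3 to 27.45 sites for every 100 protein-coding genes. On the X chromosome there were 13 for 932 genes (1.395 for every 100), among them Uba1, the ubiquitin-activating enzyme (16.4 with and 15.9 without spike-in), the replicative polymerase gene Pola1 (9.95 and 7.07) and Zmym3 (8.66 and 27.5). The X chromosome holds 4.17% of the genes, and its share of gene-start peaks was 0.180 to 1.02% in every one of the 9 lists, so it was low for NuRD and ZFP296 peaks too. The share of promoter sites without NuRD varied less, from 59.2% (54.7 to 63.5%) on chromosome 8 to 75.5% (68.8 to 81.4%) on chromosome 14 among autosomes.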

How the data were processed

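ChIP-seq peak lists of 9 samples were used, and the other 27 samples were not analysed here. Among those 27 were wild-type ESC libraries of CHD4 and of MBD3 made with spike-in chromatin. Titles gave the groups and replicates. Reads were mapped by the authors to mm9, and they removed duplicates and called peaks in each sample with MACS2 (version 2.0 per the submitters' processing notes). Each deposited peak has a value that the authors gave on a −log10 scale, and the sources used here do not say whether it was made from p or from q. The peak names give thresholds of 0.001 (8 lists) and 0.0001 (SIN3A without spike-in), so lists were compared by overlap of at least 1 bp and not by level.

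Gene starts were the 5′ ends of 22367 protein-coding genes (GENCODE vM1). No peak passed the end of its chromosome in the reference (22 of 29 chromosomes and contigs of the lists are in it). Divergent means starts of both strands within 1 kb of the midpoint. Sites without NuRD were compared with the remaining SIN3A promoter sites by 2-sided Fisher's exact tests (conditional odds ratios) on 3 peak lists, gene orientation and 15 strings in 200 bp windows, with Benjamini-Hochberg adjustment over 19 tests and a threshold of 0.05. The E2F and SP strings share letters. Intervals of shares are exact (Clopper-Pearson, 95%) and hold counting error only. Tests were run in scipy 1.17.1 under Python 3.11.15 and tested on simulated data. Sequences were read with samtools 1.23.1 and pyfaidx 0.9.0.4.

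Named sites were the 10 of highest SIN3A value with spike-in, the 6 of highest ZFP296 value and of highest value in either NPC list, the 3 nearest to each side of the 1 kb limit and the 3 nearest to a NuRD peak, and up to 4 genes of a list in order of value. Further genes of short lists, the sites of smallest overlap, divergent pairs and X-linked genes were named after their values were seen. The sites, gene lists and strings were chosen with earlier results of these data known.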

Additional observations from a re-analysis of the deposited data

How the results depend on the processing

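Replicate numbers name lists and carry no level per site. No paired analysis was possible because the overlap tests come from peak lists, and CHD4 and MBD3 are not compared with each other. The odds ratios of the NPC CHD4 (0.124 to 0.293), NPC MBD3 (0.151 to 0.2805), ZFP296 (0.105 to 0.353) and divergent start (1.72 to 2.55) comparisons kept their direction and stayed past the threshold under all 14 alternatives run for each: other distances or starts, larger overlap, a NuRD-free margin, a stricter value, leaving out each NuRD list, sites with both CHD4 replicates as the comparison, the middle tertile of SIN3A value or of width, and, added after seeing the data, 1 site per gene. The lowest ratio for ZFP296 came from the comparison with both CHD4 replicates (12.7% of those sites had ZFP296). Without CHD4 replicate 2 the NPC CHD4 ratio was 0.293 and the ZFP296 ratio 0.180. The number of sites without NuRD ranged from 3459 with no NuRD peak within 1 kb to 5740 without CHD4 replicate 2, and was 7331 with the SIN3A list without spike-in alone, which has more peaks. The number of strings past the threshold was 3 in the main analysis, 1 in the middle tertile of G and C content (ETS, 11.99% against 17.04%), 6 with a window of 400 bp and 2 to 3 when a NuRD list was left out. Which strings passed changed too. With a window of 400 bp they were NF-Y, SOX2, YY1, E2F, RONIN and AP1, and with 100 bp SP, OCT and AP1. With a value of at least 5 in every list they were NF-Y, SP and AP1. The causes were not tested. The direction for NF-Y, SP and SOX2 held under all 13 alternatives each, and the threshold was missed under 3, 5 and 4 of them. Peak lists without read counts limit all results to called peaks.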
